A study of Mus musculus with 13 samples.

Results

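The proteasome subunit genes were taken as the protein-coding mouse genes whose symbol begins with Psma, Psmb, Psmc, Psmd or Psme and a digit, and 46 of the 21887 protein-coding genes placed on chromosomes in the RefSeq annotation of GRCm38.p6 (mm10) met that rule. The rule uses gene symbols alone, but the group was taken up with earlier results of these data known. For each gene, peaks of histone H3 lysine 27 acetylation (H3K27ac, a mark of active promoters and enhancers) and of the co-repressors NCoR and SMRT were counted where the centre of the peak lay within 1 kb of either annotated end of the gene. A gene with such a peak is called marked. Of the 46, 44 encode subunits, regulators or assembly factors of the proteasome, while Psmc3ip, a cofactor of meiotic recombination, and Psme3ip1, a partner of the activator PA28 gamma, share only the symbol.

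The proteasome degrades proteins tagged with ubiquitin. Its 20S core is a barrel of alpha-type and beta-type rings with the proteolytic sites inside, and its 19S cap holds a ring of ATPases that unfold the substrate and non-ATPase subunits that bind ubiquitin, remove it or scaffold the lid. In cells exposed to interferon gamma, 3 inducible beta subunits (Psmb8, Psmb9 and Psmb10) replace the constitutive catalytic ones, and the activators of the PA28 and PA200 families can cap the core in place of 19S. NCoR and SMRT are large scaffold proteins that bring the histone deacetylase HDAC3 to chromatin.

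The study followed the reprogramming of mouse embryonic fibroblasts (MEFs) to pluripotency by OSKM, the factors Oct4, Sox2, Klf4 and c-Myc, with 1 ChIP-seq library per group. H3K27ac was profiled in OSKM cultures given a plasmid for HDAC3-YF, the deacetylase-null mutant HDAC3-Y298F, or a FLAG control plasmid, each at days 5, 9 and 13, in embryonic stem cells (ESCs) and in untreated MEFs. NCoR and SMRT were profiled in OSKM cultures at day 9, which received neither plasmid according to the labels, and in untreated ESCs. The MEFs and every OSKM culture were of the C57BL/6J-OG2 strain, which carries a fluorescent reporter of Oct4, and the ESCs were C57BL/6J. By the protocols in the labels, MEFs were infected with virus and then kept in serum-based ESC medium, whereas the ESCs were kept in a defined medium with leukaemia inhibitory factor and small-molecule inhibitors, so strain background and medium differ between ESCs and OSKM cultures along with cell state. The OSKM cultures are labelled as presumed intermediates and may be mixtures. A lower or absent peak in such a mixture may mean fewer marked cells or less mark per cell, and these cannot be told apart. An ESC input library is listed in the series and was not analysed here.

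Each library was represented by a list of 200 bp intervals. The H3K27ac lists held 26591 peaks in MEFs, 14251 to 16944 in the 6 OSKM libraries and 25499 in ESCs, and the co-repressor lists held 5179 (NCoR) and 4860 (SMRT) peaks at day 9 and 3687 (NCoR) and 4324 (SMRT) in ESCs. Read depth was not stated in the labels or files, so a gene without a peak is one not called at an unknown depth, and peak counts cannot be compared between lists as amounts. The deposited H3K27ac score reached a ceiling of 200, which 24.4% of the ESC peaks and 25.9% of the MEF peaks shared, against 9.06 to 11.9% at days 5 and 9 and 1.67 to 2.11% at day 13, so the day 13 lists stood apart. Marker genes followed the labels in part. Of 8 ESC markers, 6 were marked by H3K27ac in ESCs and 2 in MEFs, with Esrrb and Dppa5a unmarked in ESCs, and of 8 fibroblast markers, 1 was marked in ESCs and 6 in MEFs, with Prrx1 and Runx1 unmarked in MEFs. In the OSKM libraries 1 to 3 ESC markers and 2 to 4 fibroblast markers were marked. With 1 library per group there is no replicate check. Comparisons between groups below are descriptions of these libraries with no test, apart from permutations over the days as pairs. Peak scores are given as a percentile within their own list, with ties placed at their middle. The lists differ in length and in the share at the ceiling, so percentiles from different lists stand side by side and show no change between them.

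Most proteasome genes carried H3K27ac in every library. Of the 46, 35 were marked in all 8 lists, against 32.7% of all protein-coding genes. Only Psmb11 and Psme2b were marked in none, against 42.9% of all genes. With a window of 500 bp, 27 members were marked in all 8 lists, and the share of all genes was not computed for that window. In MEFs 42 members were marked (48.2% of all genes). At day 5, 39 members were marked with HDAC3-YF (40.8% of all genes) and 39 with FLAG (42.2%). Day 9 gave 41 with HDAC3-YF (42.1% of all genes) and 41 with FLAG (43.1%), and day 13 gave 41 with HDAC3-YF (43.9%) and 39 with FLAG (42.6%). In ESCs 40 members were marked (48.6% of all genes). The share of members marked therefore ran from 84.8 to 91.3%, close to that of the 87 cytosolic ribosomal protein genes (82.8 to 88.5%) and the 78 mitochondrial ones (78.2 to 89.7%), other sets of genes for housekeeping complexes.

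**Figure D1:**
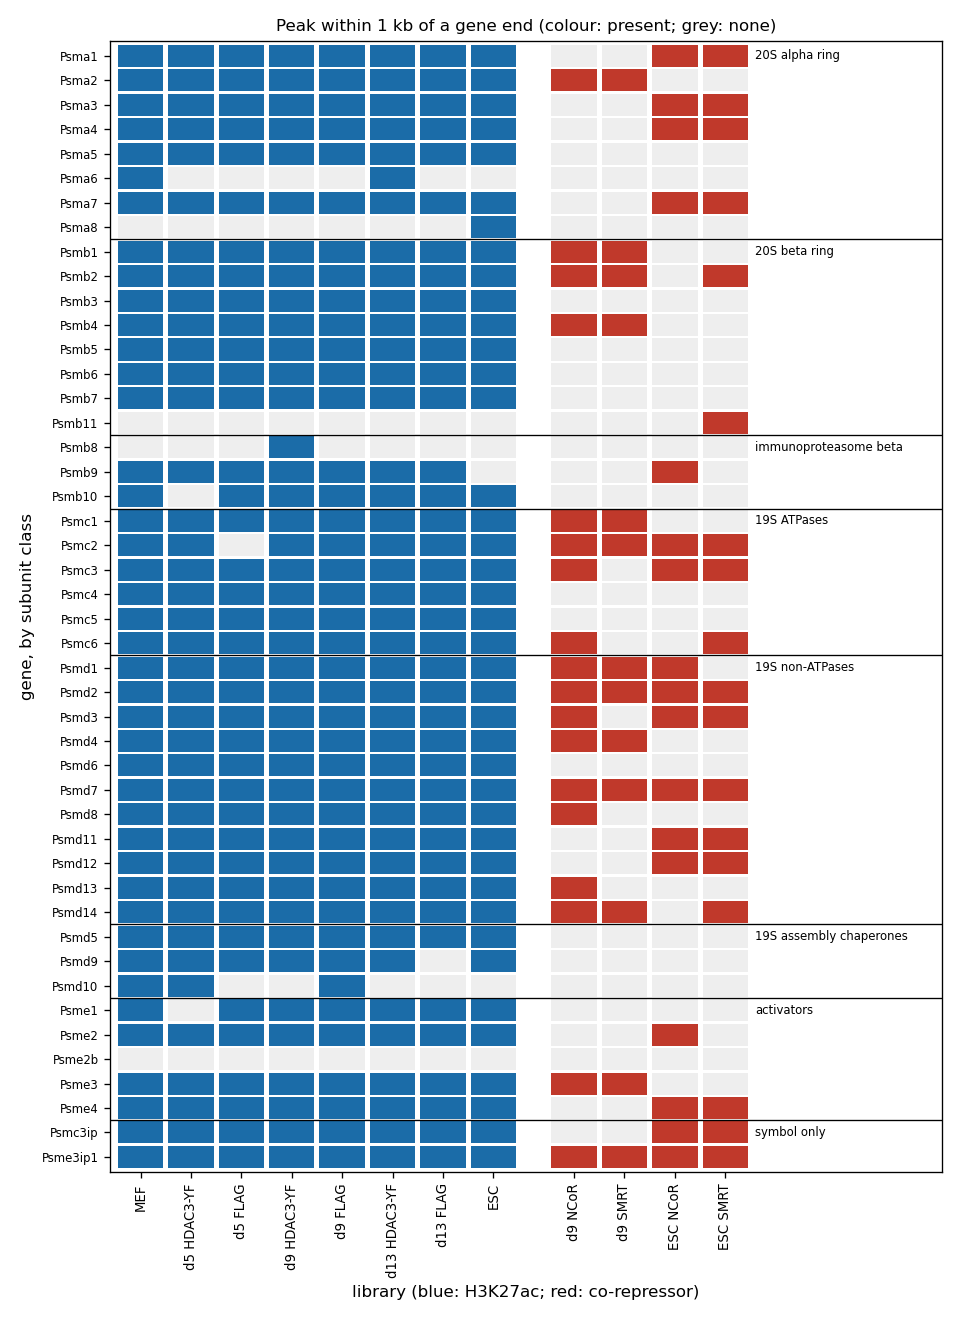
Presence of a peak at either end of each of the 46 proteasome genes (rows, by subunit class) in the 12 peak lists (columns, 8 of H3K27ac in blue and 4 of co-repressors in red). A coloured cell means at least 1 peak centre within 1 kb of a gene end and a grey one none. The rows of 35 genes are blue in all 8 H3K27ac columns, while the co-repressor columns are red for 13 to 18 genes each.

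Of the 16 genes for alpha subunits and non-inducible beta subunits of the core, 13 were acetylated in all 8 lists. The catalytic subunits Psmb5, Psmb6 and Psmb7 were among them. With a window of 500 bp 9 of the 16 were. Distances are from the outer 5' end of the annotated gene, called its start (negative values are upstream). Psma3, with peaks at -790 to -616 bp and in ESCs another at 810 bp, was then marked in 0 lists. The only RefSeq start of Psma3, chr12:70974623, lies 5340 bp inside the gene. All 8 lists held a peak there, at percentiles of 87.1 to 96.4. Psma6 was marked at an outer end only in MEFs (percentile 35.2) and at day 13 with HDAC3-YF (percentile 0.0246, at the bottom of that list). RefSeq gives Psma6 a further transcript start at chr12:55398825, 14603 bp inside the gene, and there every one of the 8 lists held a peak, at a percentile of 87.8 in ESCs and 87.1 in MEFs. In the HDAC3-YF cultures the Psma6 percentiles there were 95.5, 89.5 and 91.6 on days 5, 9 and 13, against 86.5, 86.3 and 92.7 in the FLAG cultures. The low count for Psma6 thus depends on which of its starts is used. Internal starts were examined after the values had been seen.

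The other genes of these 16 that were not acetylated throughout are known from single tissues. Psma8, the alpha subunit known from male germ cells, was marked in ESCs alone, with 1 peak at the score ceiling of 200 and none in any other H3K27ac list. The strand of Psma8 was not given, so whether this peak lay at its start or its 3' end is not known. Psmb11, the catalytic subunit known from the thymic cortex, had no H3K27ac peak in any list.

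None of the 3 inducible core subunits was acetylated in all 8 lists. Psmb9 had a peak in MEFs (percentile 62.0) and in every OSKM list but none in ESCs. Its percentiles on days 5, 9 and 13 were 33.1, 69.8 and 69.9 with HDAC3-YF, against 31.8, 54.2 and 63.3 with FLAG. The Psmb9 peaks lay at -700 to -390 bp from its start, where an end of Tap1, a subunit of the antigenic peptide transporter, is also within 1 kb, so they cannot be assigned to one of these genes. Psmb8 was marked in 1 list, day 9 with HDAC3-YF, by a peak at percentile 15.0, and it too has an end of Tap1 within 1 kb. Psmb10 was marked in all lists except day 5 with HDAC3-YF, where the list held 1 peak inside the gene but more than 1 kb from both ends. Its end peaks lay 664 to 992 bp downstream of the start, near the edge of the 1 kb window, and within 500 bp it was marked in 0 lists. Its percentile was 26.6 in ESCs and 66.2 in MEFs, and no more than 44.9 (day 5 with FLAG) in the OSKM lists.

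The 19S cap was acetylated almost throughout. All 11 non-ATPase subunits and 5 of the 6 ATPases were marked in all 8 lists, the exception being the ATPase Psmc2, which lacked an end peak at day 5 with FLAG. Several of these calls rest on peaks more than 500 bp from the outer gene end. With a window of 500 bp, 13 of the 17 cap genes were marked in all 8 lists, with Psmd8 in 3 lists and Psmd11 in 5. Psmd2, whose peaks lay 692 to 914 bp downstream of its outer end, was marked in 0. The RefSeq start of Psmd2 lies downstream of that end (chr16:20651122), in the promoter window chr16:20651402-20651701 printed below. These distances are therefore not from the RefSeq start. The Psmc2 percentiles at its outer start were 87.8 in ESCs and 53.1 in MEFs, and in the cultures 8.26, 31.8 and 28.8 on days 5, 9 and 13 with HDAC3-YF, against no peak, 5.23 and 25.9 with FLAG. At its second RefSeq start, chr5:21786747, 1472 bp inside the gene, all 8 lists held a peak, at percentiles of 85.5, 77.3 and 64.9 on days 5, 9 and 13 with HDAC3-YF, against 81.2, 77.7 and 52.7 with FLAG. The missing day 5 call thus concerns the outer start, which has an end of the gene Dnajc2 within 1 kb. The assembly chaperones of the cap were less evenly marked. Psmd5 was marked in all 8 lists, Psmd9 in 7 (not at day 13 with FLAG), and Psmd10 in 3, namely MEFs at percentile 69.9, day 5 with HDAC3-YF at 23.7 and day 9 with FLAG at 16.6. Psmd10 is also known as the oncoprotein gankyrin.

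Of the activators, Psme2, Psme3 and Psme4 were marked in all 8 lists. Psme1, which pairs with Psme2 in the interferon-inducible PA28 ring, was marked in all but day 5 with HDAC3-YF. With HDAC3-YF it had no peak on day 5 and percentiles of 46.2 and 29.1 on days 9 and 13, against 40.6, 57.5 and 44.9 with FLAG, and it stood at 4.74 in ESCs and 70.9 in MEFs. Psme2b, a short gene resembling Psme2, had no peak of any kind in the 12 lists. Psmc3ip and Psme3ip1 were each marked in all 8.

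The H3K27ac calls of the HDAC3-YF and FLAG cultures were the same for 39 of the 46 members on all 3 days, and 8 of the 138 gene and day pairs differed. At day 5 Psmc2 and Psmd10 were marked with HDAC3-YF and not with FLAG, 2 of 46 against 2.08% of all genes, and Psmb10 and Psme1 with FLAG and not with HDAC3-YF, 2 of 46 against 3.50%. At day 9 Psmb8 was marked with HDAC3-YF alone (1 of 46, all genes 2.54%) and Psmd10 with FLAG alone (1 of 46, all genes 3.51%). At day 13 Psma6 and Psmd9 were marked with HDAC3-YF alone (2 of 46, all genes 5.55%) and no member with FLAG alone (0 of 46, all genes 4.16%). These shares are near the background and do not set the members apart from other genes. The peaks behind the 8 differing calls had percentiles in their lists from 0.0246 (Psma6, day 13) to 57.8 (Psmd9, day 13), below the median of all marked genes in each list, and Psmd10 stood on opposite sides at days 5 and 9. With the 3 days taken as pairs, HDAC3-YF minus FLAG averaged 0.667 members marked (39, 41 and 41 with HDAC3-YF against 39, 41 and 39 with FLAG). A two-sided exact sign-flip permutation test gave p = 1. The arms tied at days 5 and 9, which fixed that p in advance, so the test cannot decide whether the arms differ. Even without ties, 3 pairs cannot give a p under 0.25. With a window of 500 bp the count for FLAG alone at day 5 was 4 and that for HDAC3-YF alone at day 13 was 5. Markers of other cell types also differed between the cultures. Of 4 epithelial markers, 0, 3 and 4 were marked with HDAC3-YF at days 5, 9 and 13, against 1, 1 and 3 with FLAG. Of 8 fibroblast markers, 4, 2 and 3 were marked with HDAC3-YF, against 4, 4 and 4 with FLAG. Of 4 haematopoietic markers, 0, 0 and 0 were marked with HDAC3-YF, against 0, 0 and 2 with FLAG, and of 4 endothelial markers 1 was marked in each of the 6 lists. Their part in the members' calls was not tested.

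The H3K27ac score allows peaks to be ranked within a list. For each marked member the percentile of its best end peak was taken. In the 6 OSKM lists the members' median was above that of all marked genes. It was 85.2 for members against 70.6 for all marked genes at day 5 with HDAC3-YF, 76.8 against 68.4 at day 5 with FLAG, 78.6 against 67.9 at day 9 with HDAC3-YF, 80.6 against 68.7 at day 9 with FLAG, 69.9 against 64.3 at day 13 with HDAC3-YF and 75.6 against 65.9 at day 13 with FLAG. In MEFs and ESCs the medians of members and of all marked genes were equal, at 87.8 in ESCs and 87.1 in MEFs, which is the percentile of every peak at the ceiling. In ESCs 31 of the 40 marked members sat at the ceiling of 200, against 51.4% of all marked genes, and in MEFs 30 of the 42 did, against 58.9%.

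The genes at the top of this ranking came from several classes. The highest medians over the 8 lists were those of the core subunit Psma7 (94.8), the cap scaffold Psmd1 (94.4), the lid subunit Psmd11 (94.4) and the core subunit Psmb2 (94.2). At the low end, apart from Psmb8 and Psma6, stood Psmd10 (23.7), Psmc2 (28.8), Psmb10 (32.5) and Psme1 (44.9). These 6 genes and Psmd9 are the 7 whose calls differed between the HDAC3-YF and FLAG cultures.

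**Figure D2:**
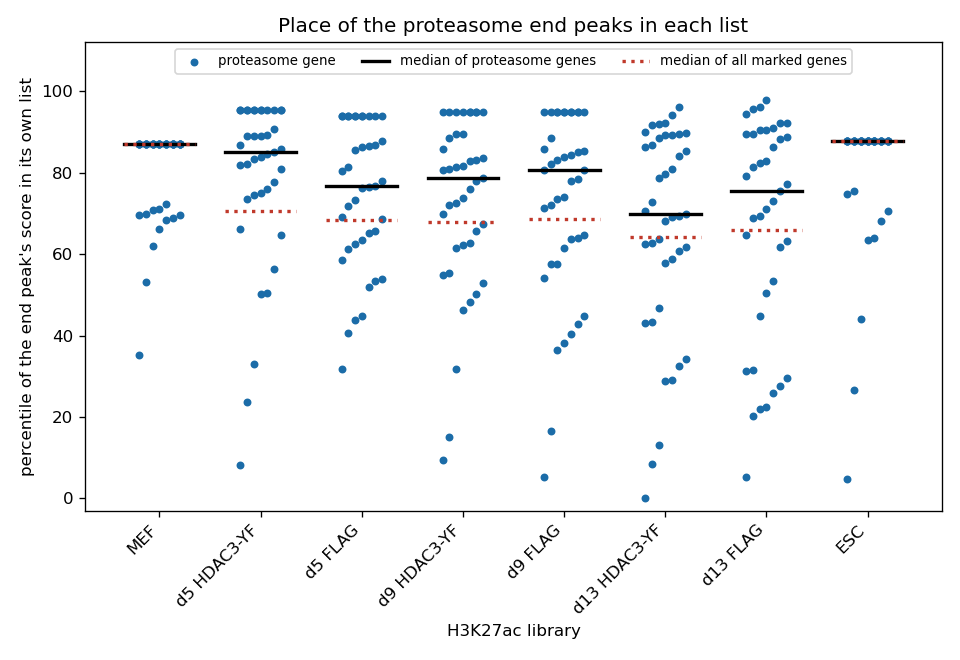
Percentile of the best H3K27ac end peak of each marked proteasome gene within its own list (vertical axis, 0 to 100) for the 8 libraries (horizontal axis). Points are genes, solid bars the members' medians and dotted bars the medians of all marked genes, and points at the shared ceiling score fall on top of each other. The solid bar lies above the dotted one in the 6 OSKM libraries and on it in MEFs and ESCs.

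Between the end points of reprogramming, Psma8 was marked in ESCs and not in MEFs (1 of 46, all genes 5.75%), and Psma6, Psmb9 and Psmd10 in MEFs and not in ESCs (3 of 46, all genes 5.35%). The MEF peaks of these genes had percentiles of 35.2, 62.0 and 69.9 in that order. Psmd10 was marked at its start in MEFs, 206 bp downstream, whereas the Psma6 and Psmb9 differences concern an outer start and a shared interval, as described above.

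NCoR and SMRT lay at fewer proteasome genes than H3K27ac did. At day 9, NCoR marked 18 of the 46 (39.1%, exact 95% binomial interval 25.1 to 54.6, all genes 20.0%) and SMRT 13 (28.3%, 16.0 to 43.5, all genes 18.2%). In ESCs, NCoR marked 17 (37.0%, 23.2 to 52.5, all genes 11.3%) and SMRT 18 (39.1%, 25.1 to 54.6, all genes 12.6%). The intervals cover counting error over the genes only. Taking either protein, 18 members were marked at day 9 (all genes 21.5%) and 21 in ESCs (all genes 14.2%).

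Ribosomal protein genes showed another pattern across the same lists. NCoR or SMRT marked 48.3% of the cytosolic set at day 9 and 16.1% in ESCs, and 52.6% of the mitochondrial set at day 9 and 15.4% in ESCs. The counts were also taken over acetylated genes alone. Of the 41 members with H3K27ac at day 9 with FLAG, 18 had a co-repressor, against 47.0% of all such genes and 57.5% of the cytosolic ribosomal ones. Of the 40 members with H3K27ac in ESCs, 19 had a co-repressor, against 2873 of all 10633 such genes (27%) and 18.2% of the cytosolic ribosomal ones. Among acetylated genes the members' share was thus near the background at day 9 and above it in ESCs, and the day 9 and ESC libraries differ in list length, strain and medium besides cell state, whose parts were not tested.

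**Figure D3:**
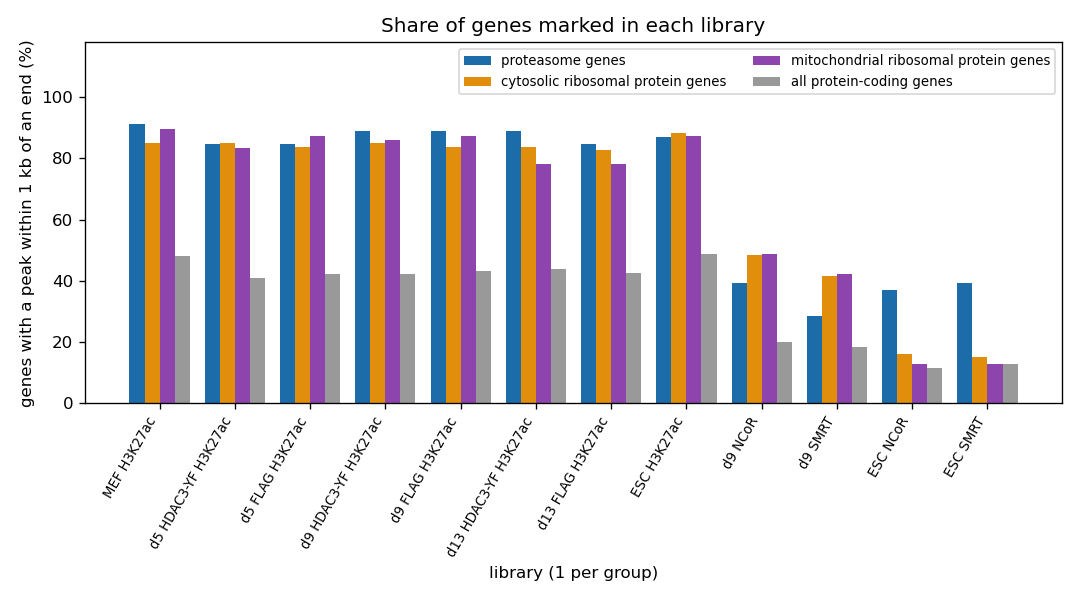
Share of genes (percent, vertical axis) with a peak at either end in each of the 12 lists (horizontal axis) for the 46 proteasome genes, the 87 cytosolic and 78 mitochondrial ribosomal protein genes and all 21887 protein-coding genes. In the 2 day 9 co-repressor lists the ribosomal sets stand above the proteasome genes, and in the 2 ESC co-repressor lists the proteasome genes stand above both.

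The subunit classes differed in how many members a co-repressor marked. At day 9, 12 of the 17 subunits of the 19S cap were marked, against 4 of the 16 alpha and non-inducible beta subunits of the 20S core and 21.5% of all genes. In ESCs the counts were 10 of 17 in the cap and 6 of 16 in the core (all genes 14.2%), and 8 cap genes were marked in both cell populations against 1 core gene (all genes 7.84%). The core's count at day 9 is near the share of all genes. Most genes of both classes were acetylated, however, 13 of 16 in the core and 16 of 17 in the cap in all 8 lists. Of all genes with H3K27ac at day 9 with FLAG, 47.0% had a co-repressor. The core's 4 of 16 lies below that share, and the cap's 12 of 17 lies above it by less than above the share of all genes. The difference between the classes was not tested. When internal starts were added, the core count at day 9 became 6 of 16 and that for both populations 2, with the cap again at 12 and 8, and when genes beside another gene were left out, the day 9 counts were 9 of 13 in the cap and 2 of 10 in the core.

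Within the cap, the ATPases Psmc2, Psmc3 and Psmc6 and the non-ATPases Psmd1, Psmd2, Psmd3, Psmd7 and Psmd14 were marked in both populations. Psmd1 and Psmd2 are the large scaffold subunits of the base, Psmd14 is the deubiquitinase of the lid, Psmd7 is the partner with which it forms a dimer, and Psmd3 is a structural lid subunit. The ATPase Psmc1, the ubiquitin receptor Psmd4 and the lid subunits Psmd8 and Psmd13 were marked at day 9 and not in ESCs. The lid subunits Psmd11 and Psmd12 were marked in ESCs and not at day 9. Neither Psmc4, Psmc5 nor Psmd6 was marked in either population.

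In the core, the alpha ring was marked at 1 gene at day 9 (Psma2) and at 4 different genes in ESCs (Psma1, Psma3, Psma4 and Psma7), with none in both. An end of the mitochondrial ribosomal protein gene Mrpl32 lies within 1 kb of Psma2. The only RefSeq start of Psma3, chr12:70974623, lies 5340 bp inside the gene and held a peak in all 8 H3K27ac lists and all 4 co-repressor lists. At that start Psma3 was thus marked in both populations. Among the non-inducible beta subunits, Psmb1 and Psmb4 were marked at day 9, Psmb2 in both populations and Psmb11 in ESCs, while the catalytic Psmb5, Psmb6 and Psmb7 had no co-repressor peak. Of the inducible subunits, Psmb9 alone was marked, by NCoR in ESCs, centred at -500 bp from its start, where an end of Tap1 is also near. Among the activators, Psme3, which encodes the nuclear PA28 gamma, was marked at day 9, and Psme2 and Psme4 in ESCs. The chaperone genes had no co-repressor peak. Psmc3ip was marked in ESCs and Psme3ip1 in both.

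Together 10 members were marked in both populations (all genes 7.84%), 8 at day 9 and not in ESCs (all genes 13.7%) and 11 in ESCs and not at day 9 (all genes 6.38%). The remaining 17 were marked in neither, as were all genes outside these 3 shares, which are most genes. The 10 shared members were 55.6% of the day 9 set and 47.6% of the ESC set, against 36.5% and 55.2% for the 1717 genes shared among all genes. NCoR and SMRT largely marked the same members. At day 9, 13 members had both and 5 had NCoR alone (Psmc3, Psmc6, Psmd3, Psmd8 and Psmd13), and none had SMRT alone. In ESCs, 14 had both, 3 had NCoR alone (Psmb9, Psmd1 and Psme2) and 4 had SMRT alone (Psmb2, Psmb11, Psmc6 and Psmd14). The share with both was 72.2% at day 9 and 66.7% in ESCs, near the 77.2% and 68.5% of all genes, and every interval shared by NCoR and SMRT had an identical score for each (4003 of 4003 at day 9 and 2743 of 2743 in ESCs), so the lists may not have been made independently.

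The promoters of the genes that carried co-repressor peaks at the start in most lists are printed here, since the peaks fall on or beside them, together with that of Psmb11, which had no H3K27ac. By outer gene ends, the members in all 4 co-repressor lists were Psmc2, Psmd2, Psmd7 and Psme3ip1, and Psmb2, Psmc3, Psmd1, Psmd3 and Psmd14 were in 3. Psmd7, Psmb2, Psmc3 and Psmd3 had no promoter entry. With a window of 500 bp Psmd2 was in 2 lists and Psme3ip1 in 3. Each sequence runs from 250 bases before to 50 bases after the RefSeq start (GRCm38.p6), 5' to 3' on the gene's strand. Capitals mark matches, on either strand, to the NF-Y box CCAAT, the E-box CACGTG, the GC box GGGCGG and the ETS core CCGGAAGT, and neighbouring capitals can be overlapping matches. Psmc2 lies at chr5:21785025-21785324 on the plus strand, Psmd2 at chr16:20651402-20651701 on the plus strand, Psme3ip1 at chr8:94601677-94601976 on the minus strand, Psmd1 at chr1:86064369-86064668 on the plus strand, Psmd14 at chr2:61711444-61711743 on the plus strand and Psmb11 at chr14:54625060-54625359 on the plus strand.
Psmc2: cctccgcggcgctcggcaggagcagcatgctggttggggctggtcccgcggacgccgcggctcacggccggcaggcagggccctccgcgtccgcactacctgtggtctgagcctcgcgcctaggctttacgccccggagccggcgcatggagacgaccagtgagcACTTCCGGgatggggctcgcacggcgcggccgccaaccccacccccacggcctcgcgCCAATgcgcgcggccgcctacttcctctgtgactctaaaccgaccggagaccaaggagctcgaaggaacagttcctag
Psmd2: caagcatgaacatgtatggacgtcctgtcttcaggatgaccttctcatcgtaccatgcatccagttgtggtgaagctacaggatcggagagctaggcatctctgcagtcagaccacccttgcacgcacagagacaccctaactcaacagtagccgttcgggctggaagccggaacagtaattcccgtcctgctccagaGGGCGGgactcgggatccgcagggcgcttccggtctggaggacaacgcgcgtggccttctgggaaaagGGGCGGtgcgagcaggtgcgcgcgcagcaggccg
Psme3ip1: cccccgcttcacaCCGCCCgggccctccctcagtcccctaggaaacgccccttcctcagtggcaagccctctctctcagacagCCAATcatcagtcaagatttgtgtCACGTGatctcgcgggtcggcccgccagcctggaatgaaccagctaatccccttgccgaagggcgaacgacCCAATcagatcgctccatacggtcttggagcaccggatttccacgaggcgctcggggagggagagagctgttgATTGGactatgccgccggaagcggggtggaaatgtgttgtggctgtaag
Psmd1: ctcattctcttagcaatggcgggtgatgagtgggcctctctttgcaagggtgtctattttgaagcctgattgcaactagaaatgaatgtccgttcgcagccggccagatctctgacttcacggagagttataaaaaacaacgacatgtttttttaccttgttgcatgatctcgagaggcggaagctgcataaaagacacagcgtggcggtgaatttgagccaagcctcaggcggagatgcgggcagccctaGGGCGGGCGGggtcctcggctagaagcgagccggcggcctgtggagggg
Psmd14: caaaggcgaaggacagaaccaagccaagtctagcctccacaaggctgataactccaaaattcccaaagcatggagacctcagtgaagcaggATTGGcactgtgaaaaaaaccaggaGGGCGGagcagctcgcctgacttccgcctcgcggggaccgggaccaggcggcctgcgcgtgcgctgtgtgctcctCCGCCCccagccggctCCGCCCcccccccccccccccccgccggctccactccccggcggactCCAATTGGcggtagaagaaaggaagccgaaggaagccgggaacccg
Psmb11: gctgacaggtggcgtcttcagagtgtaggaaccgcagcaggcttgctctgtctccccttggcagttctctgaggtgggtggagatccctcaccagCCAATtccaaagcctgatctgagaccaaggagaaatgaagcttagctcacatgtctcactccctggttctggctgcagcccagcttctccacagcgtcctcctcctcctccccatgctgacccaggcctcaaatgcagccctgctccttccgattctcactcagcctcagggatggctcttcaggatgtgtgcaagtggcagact

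In the Psmc2 window 189 of the 300 bases lay under an interval of NCoR and of SMRT at day 9 and 127 under those of ESCs, and the ETS core and the NF-Y box of this promoter are in capitals above. H3K27ac intervals covered 140 of its bases in MEFs and 110 in ESCs. The Psmd2 window was covered over 200 bases by NCoR and SMRT in ESCs and by neither at day 9, when the interval (chr16:20651782-20651981) lay just downstream. At Psmd1 the day 9 intervals covered 65 bases and the ESC NCoR interval (chr1:86064747-86064946) lay downstream of the window. The Psme3ip1, Psmd14 and Psmb11 windows had no base under a co-repressor interval, their peaks lying outside it. H3K27ac covered 98 to 174 bases of the Psme3ip1 window in all lists but that of MEFs. An end of the gene Rspry1 lies within 1 kb of Psme3ip1.

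Motifs were counted on both strands in the promoters of the 39 members and 17492 genes in all that had an entry, and of 5855 of them acetylated in all 8 lists. The ETS core CCGGAAGT was found in 8 members (20.5%), against 5.69% of all genes and 11.8% of the acetylated ones, namely Psma6, Psmc1, Psmc2, Psmd6, Psmd12, Psmd13, Psme3 and Psme4. The core of the antioxidant response element, TGANNNNGC, the site of Nfe2l1 and Nfe2l2, factors known to regulate proteasome genes, was found in 23 members (59.0%), against 45.5% of all genes and 47.6% of the acetylated ones. GC boxes were found in 23 members (59.0%), against 49.2% and 73.5%. The NF-Y box was in 16 (41.0%), against 42.3% and 41.0%, the E-box bound by MYC proteins in 5 (12.8%), against 8.91% and 12.3%, and CGCATGCG, the core site of nuclear respiratory factor NRF1, in 1 (2.56%), against 2.77% and 5.70%. A match is a description of the letters and shows no binding.

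For the 39 members with a known strand, the end peaks lay at the 5' end. The start here is the outer 5' end of the annotated gene, and the RefSeq starts of Psma3 and Psmd2 lie further inside. No member had a peak at the 3' end alone in any of the 12 lists. Among all genes with a known strand, drawn from the 17492 with a promoter entry, 51 to 238 did, so such genes were few there too. The median centre of the members' H3K27ac peaks was 160 to 238 bp downstream of the start (all genes 210 to 229 bp). Of NCoR it was 132 bp and of SMRT 128 bp at day 9 (all genes 150 and 166 bp), and 160 bp for both in ESCs (all genes 242 and 252 bp). Of the members' NCoR peaks at day 9, 12 of 15 were downstream (80.0%, all genes 73.6%), and of the SMRT peaks 8 of 11 (72.7%, all genes 76.6%). In ESCs 10 of 17 NCoR peaks were downstream (58.8%, all genes 81.4%) and 10 of 15 SMRT peaks (66.7%, all genes 81.2%).

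**Figure D4:**
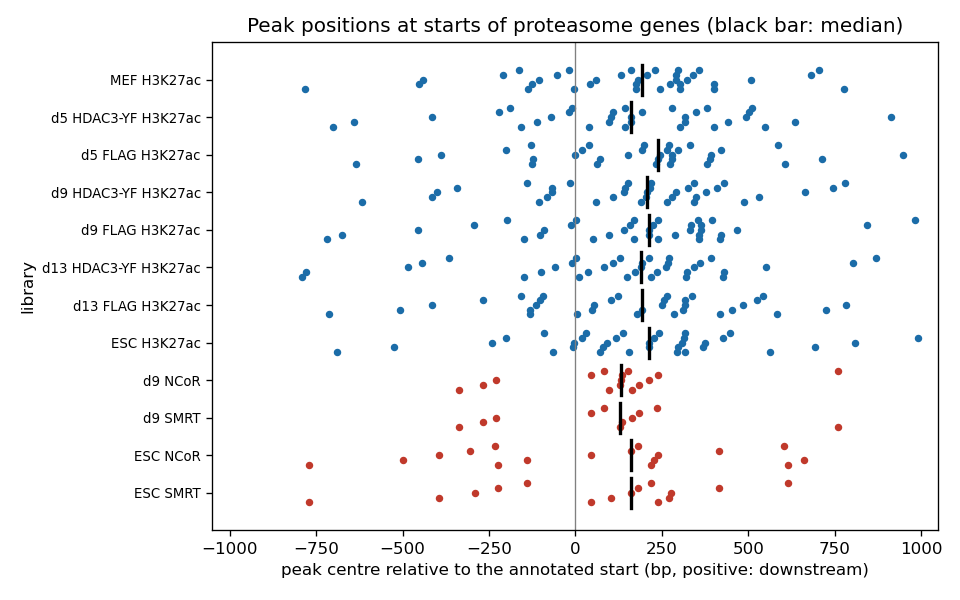
Distance of each peak centre from the annotated start, taken as the gene's outer 5' end, for the members with known strand, by library (rows). The horizontal axis is in base pairs, positive downstream. Points are peaks, blue for H3K27ac and red for co-repressors, with heights spread for visibility, and black bars are medians, which lie between 128 and 238 bp downstream in all 12 lists.

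Co-repressor intervals sat close to H3K27ac intervals of the same stage, the FLAG culture standing in for the plasmid-free OSKM culture at day 9. At day 9 the 21 distinct intervals at member ends all had an H3K27ac centre of the FLAG day 9 library within 1 kb (all genes 94.4%), at a median of 183 bp (all genes 174 bp), and 12 of them overlapped an H3K27ac interval (57.1%, all genes 54.3%). In ESCs 23 of 25 intervals had one within 1 kb (92.0%, all genes 92.1%), at a median of 212 bp (all genes 184 bp), and 11 overlapped (44.0%, all genes 50.9%). The exceptions were the SMRT interval at Psmb11 (chr14:54625481-54625680), 6646 bp from the nearest H3K27ac centre, and the NCoR interval at Psmb9 (chr17:34187731-34187930), 17118 bp from it. Neither gene had an H3K27ac peak at an end in ESCs.

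Genes that act with the proteasome but carry other symbols were examined as a separate list of 35, of which 34 matched the annotation. It holds assembly factors (Psmg1, Psmg2, Psmg3, Psmg4, Pomp), further cap subunits and deubiquitinases (Adrm1, Sem1, Uchl5, Usp14), ubiquitin genes, shuttle factors, the regulators Nfe2l1 and Nfe2l2, and antigen transport genes. In each H3K27ac list 31 or 32 were marked, where 40.8 to 48.6% of all genes were, and 30 in all 8 (all genes 32.7%). Uba1, the ubiquitin-activating enzyme gene, was marked with FLAG and not with HDAC3-YF at day 5 (1 of 34, all genes 3.50%) and day 13 (1 of 34, all genes 4.16%). These shares are near the background and do not set the list apart from other genes. NCoR or SMRT marked 23 of the 34 at day 9 (all genes 21.5%) and 9 in ESCs (all genes 14.2%), where Tap1 was among them. For the members themselves the counts were 18 of 46 at day 9 and 21 of 46 in ESCs.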

How the data were processed

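The 12 mouse ChIP-seq peak lists were used, 1 per library and group, as the authors deposited them. Per the submitters' processing notes, Bowtie2 2.2.0, MACS 1.4 and build mm10 were used, and settings are not given in the sources used here. Every interval is 200 bp wide. The deposited score of the H3K27ac lists has no stated scale and a ceiling of 200, and is given as a percentile within each list. In the co-repressor lists the deposited score is signed and was identical in both lists at every shared interval, so it was not taken as a peak height and was not used. Read depth is not given, and the input library was not analysed here.

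Peak centres within 1 kb of either end of RefSeq GRCm38.p6 genes were counted with Python 3.11.15, with exact binomial intervals from scipy 1.17.1 and figures from matplotlib 3.10.9. Strand and promoters came from RefSeq for 39 of the 46 members. The counting was tested on simulated data. There is 1 library per group. No test was made except exact permutations over the 3 days as pairs, for members marked and for their median percentile. Members, classes and lists were chosen with earlier results of these data known. Described one by one were members with no H3K27ac, with a call that differed between arms or between ESCs and MEFs, with a co-repressor peak, and the tissue-specific or inducible subunits. Alternatives were other windows, start only, other member sets, higher-scoring peaks and, added later, internal starts.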

Additional observations from a re-analysis of the deposited data

Results flagged for a closer look

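Psmd10, the gene of a 19S assembly chaperone, was the member whose H3K27ac call went opposite ways in 2 time points under the same contrast. Coded as 1 for marked and 0 for unmarked, HDAC3-YF minus FLAG was 1 at day 5 and -1 at day 9. The peaks concerned stood at percentile 23.7 of the day 5 HDAC3-YF list and 16.6 of the day 9 FLAG list, and at day 13 neither culture was marked. With 1 library per group the difference was not tested.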

How the results depend on the processing

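The H3K27ac counts of members marked per library ran from 39 to 42 in the main setting. With a window of 2.5 kb the range was again 39 to 42, and with 14251 peaks from every list it was 37 to 41. It was lower with a window of 500 bp, with the 50% highest-scoring peaks and where members were left out. Over the 8 libraries the H3K27ac counts ran from 32 to 37 with a window of 500 bp and from 29 to 41 with the 50% highest-scoring peaks. With the 28 members that have no other gene end within 1 kb, 26 were marked by H3K27ac in MEFs, 24 with HDAC3-YF and 24 with FLAG at day 5, 24 with HDAC3-YF and 25 with FLAG at day 9, 25 with HDAC3-YF and 23 with FLAG at day 13, and 25 in ESCs, while day 9 NCoR marked 11, day 9 SMRT 8 and ESC NCoR 10. That setting has fewer members by construction. Single genes moved more than these totals. With 500 bp the number of H3K27ac lists moved for 7 members (Psma3, Psma5, Psma6, Psmb10, Psmd2, Psmd8, Psmd11) and of co-repressor lists for 3 (Psma3, Psmb9, Psmd2), and with the 50% highest-scoring peaks the number of H3K27ac lists moved for 10. Genes marked in all 8 lists numbered 27 and 26 in these settings, against 35. The small counts of members marked in 1 arm or cell type moved more. Without the members beside another gene, HDAC3-YF alone marked 1 and FLAG alone 1 at day 5, and HDAC3-YF alone 0 at day 9. With a window of 2.5 kb HDAC3-YF alone and FLAG alone each marked 1 at day 5. With 500 bp, FLAG alone marked 4 at day 5, HDAC3-YF alone 2 and FLAG alone 3 at day 9, HDAC3-YF alone 5 and FLAG alone 1 at day 13, ESCs and not MEFs 3, and MEFs and not ESCs 5. With the start only, no member (0) was marked in ESCs and not MEFs. Psma8, the member so marked in the main setting, has no known strand and is not among the 39 members of that setting. That 0 was thus fixed in advance. With the 50% highest-scoring peaks, HDAC3-YF alone marked 1 and FLAG alone 0 at day 5, HDAC3-YF alone 3 at day 9, HDAC3-YF alone 4 and FLAG alone 2 at day 13, and MEFs and not ESCs 5. With 14251 peaks from every list, HDAC3-YF alone marked 1 at day 5 and 2 at day 9, and MEFs and not ESCs 5. With internal starts, an alternative chosen after seeing the data, HDAC3-YF alone marked 1 at day 5 and 1 at day 13. For the other moves the cause was not tested. At day 5 the arm with more members marked alone depended on the setting. The arms tied in the main setting, FLAG alone marked more with 500 bp, and HDAC3-YF alone marked more with the 50% highest-scoring peaks. No paired analysis by replicate number was possible because each group has 1 library. With the 3 days as pairs, chosen after seeing the data, the exact sign-flip permutation p was 1 both for members marked and for their median percentile (mean HDAC3-YF minus FLAG 0.233). For members marked, ties at days 5 and 9 fixed that p in advance. For the percentile the smallest p possible is 0.25. Percentiles from different lists show no change between them, so that test cannot decide whether the arms differ. Peak calls without known depth, 1 library per group and windows shared with neighbouring genes limit every count.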
